A study of Mus musculus with 6 samples.

Results

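The chemokines CCL2, CCL7, CCL9, CCL3, CCL4 and CXCL16 and the chemokine receptor CXCR4 were followed at the RNA level in BV2 cells, an immortalised mouse microglial line, after exposure to the purine base adenine. These 7 genes were chosen by measured values of the same arrays, namely the differences between adenine-treated and control cells, so their values are given as a description and carry no test. The rule took every array feature (the spotted oligonucleotide that stands for a gene) annotated with one of the 7 symbols. It found 1 feature for each gene, which makes 7 of the 26423 features and 7 of the 17742 genes named on the array.

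Total RNA from 6 samples was labelled with Cy5, and each sample was hybridised alone to a Phalanx mouse OneArray. The groups were untreated BV2 cells, BV2 cells with a lower dose of adenine and BV2 cells with a higher dose, with 2 arrays in each. Exposure lasted 1 h. The sample titles give the doses as 20 and 80 µM, the sample characteristics give them as 80 and 250 µM, and only their order is used here. All groups share the wild-type BV2 background and were grown alone in medium with serum, so the arrays represent 1 cell line without the other cells of the brain. The labels speak of separate control and treated cultures but do not tie each treated array to a culture of its own, so the p-values measure the spread between these arrays, part of which may be technical.

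Chemokines are small secreted proteins that bind G protein-coupled receptors and set the direction in which leukocytes and glia migrate. CC chemokines such as CCL2 and CCL7 attract monocytes through CCR2, whereas CCL3, CCL4, CCL5 and CCL9 act on other CC receptors. CXCR4 is the receptor of CXCL12 and keeps cells at sites that produce this ligand. Microglia are an early source of CC chemokines in inflamed brain tissue, and many of these genes are controlled by transcription factors of the NF-kappaB and AP-1 families and by the stability of their short-lived mRNAs.

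The deposited values were linear spot intensities, which were quantile-normalized over the arrays, and a feature was called where its Benjamini-Hochberg adjusted p in limma was below 0.05. The 2 higher-dose arrays stood apart from the rest: over features above the median level, Pearson's r of log2 intensity was 0.989 within this pair, 0.929 to 0.941 between the pair and the remaining 4, and 0.978 to 0.986 within those 4. Over all features, 1466 rose and 1337 fell at the higher dose against control, and 2 rose and 1 fell at the lower dose. Without any 1 of the control or higher-dose arrays, the 2803 calls of the first comparison dropped to between 6 and 30.

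The microglial label was checked against 12 measured markers of microglia and macrophages. Of these, 11 lay above the median feature, among them Csf1r, Cd68, Trem2, Adgre1 and Fcgr3, while the fractalkine receptor gene Cx3cr1 lay below it. The summed intensity of the 12 markers was 96760 and 103800 in the controls, 102800 and 97890 at the lower dose and 147800 and 134200 at the higher dose. At the higher dose 6 of the 12 had a positive and 6 a negative log2 difference, with a median of 0.11 and a lowest value of -0.49 for Adgre1. In limma none of the 12 fell and 3 rose, named after their values were seen. Aif1 rose by 2.07 ± 0.16 on the log2 scale (SE, limma adjusted p = 0.0167). Fcgr3 rose by 0.85 ± 0.18 (limma adjusted p = 0.0458) and Itgam by 0.77 ± 0.16 (limma adjusted p = 0.0435). In the same comparison, 982 of the 10287 named genes above the median feature rose and 792 fell. The part of this marker change in the chemokine values was not tested. In bulk RNA a change in the cells of a type and a change in RNA per cell cannot be told apart.

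Markers of other cells were also measured. None of the 7 astrocyte, 6 neuron, 7 oligodendrocyte, 7 lymphocyte, 7 neutrophil or 10 fibroblast and endothelial markers was called in limma at the higher dose. Their summed intensities in the controls and at the higher dose were 14190 to 18730 and 13050 to 13960 for astrocytes, 599 to 711 and 754 to 814 for neurons, and 3739 to 4080 and 4173 to 4546 for oligodendrocytes. For lymphocytes the sums were 950 to 1043 and 1188 to 1294, for neutrophils 1146 to 1227 and 1291 to 1455, and for fibroblasts and endothelium 2815 to 2892 and 2084 to 2436. The neuron, oligodendrocyte, lymphocyte and neutrophil sums thus lay above both controls on both higher-dose arrays. The astrocyte and the fibroblast and endothelial sums lay below both controls. The part of these sums in the chemokine values was not tested. Above the median feature lay 2 of 6 neuron, 6 of 7 oligodendrocyte, 3 of 7 lymphocyte and 2 of 7 neutrophil markers. For astrocytes the count was 2 of 7, and for fibroblasts and endothelium 3 of 10.

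At the higher dose all 6 ligands lay above both controls on both arrays, and Cxcr4 lay below both. In limma 3 of the 7 genes passed upward (Ccl2, Ccl7 and Ccl9) and none downward, and 4 were below an unadjusted p of 0.05. Of all features, 5.55% passed upward, 5.06% passed downward and 29.1% were below an unadjusted p of 0.05. Both higher-dose values lay above both controls for 28.8% of all features and below both for 31.3%. Since this comparison chose the genes, nothing is read from their count. The median log2 difference was 1.00 over the 7 genes and -0.02 over all named genes. Without either control array or either higher-dose array, 0 of the 7 passed.

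At the lower dose none of the 7 genes passed in limma, and 1, Cxcr4, was below an unadjusted p of 0.05. Of all features, 0.00757% passed upward and 0.00378% downward, and 6.36% were below an unadjusted p of 0.05. Both lower-dose values lay below both controls for Ccl9 and Cxcr4 and above them for Ccl3, which was the case for 16.6% of all features below and 18.5% above. The median log2 difference of the 7 genes was -0.14. Between the doses, all 7 genes had both higher-dose values above both lower-dose values, against 28.5% of all features, and 4 passed (Ccl2, Ccl7, Ccl9 and Ccl4), against 6.78% of all features upward and 6.95% downward. Those shares stand for 1792 features that rose and 1837 that fell, and with values as deposited 1127 rose and 2965 fell. The count of 4 genes was 0 when any 1 of the 6 arrays was left out. The 2 comparisons with the higher dose share its arrays, and those with control share the controls, so they are not independent. As the genes were chosen by differences from control on these same arrays, nothing is read from their counts here either.

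**Figure D1:**
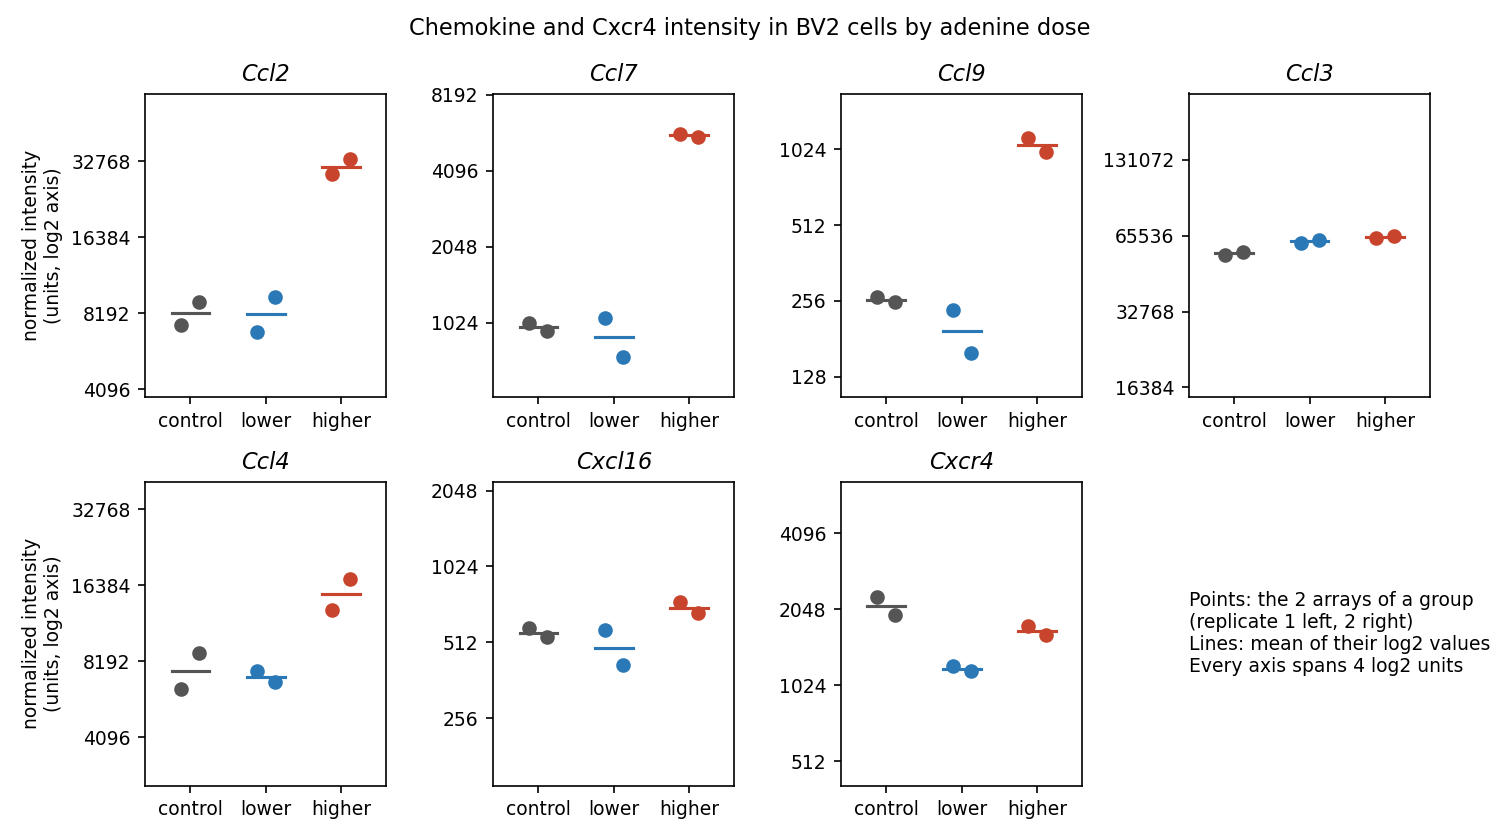
Normalized intensity (log2 axis, 4 log2 units in every panel) of the 7 genes on each of the 6 arrays, with 2 points per group and a line at the mean of their log2 values. Ccl2, Ccl7 and Ccl9 sit apart at the higher dose, where no value comes near those of the other groups, while Cxcr4 is lowest at the lower dose; levels are not comparable between panels.

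Ccl2 encodes the main monocyte attractant of the CCR2 axis. Its normalized intensity was 7338 and 9112 in the controls, 6919 and 9529 at the lower dose and 29080 and 33517 at the higher dose. The lower-dose values bracketed the controls, and both higher-dose values lay far above all other arrays. The higher-dose mean was 31298 ± 3137 against 8225 ± 1254 in the controls (SD, n = 2), a log2 difference of 1.93 ± 0.23 (SE), or 3.82-fold. At the lower dose the difference was -0.01 ± 0.23. The higher dose exceeded the lower one by 1.94 ± 0.23.

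Ccl7 encodes a second CCR2 ligand and lies next to Ccl2 on chromosome 11. It had the largest difference of the 7 genes. Its values were 1021 and 946 in the controls, 1069 and 748 at the lower dose and 5740 and 5589 at the higher dose. The higher-dose arrays differed from each other by less than any other pair of this gene relative to their level, with a mean of 5665 ± 107 against 983 ± 53.4 in the controls (SD, n = 2). The log2 difference was 2.53 ± 0.21 (SE), or 5.76-fold, at the higher dose and -0.14 ± 0.21 at the lower dose, where values as deposited gave 0.04. Between the doses it was 2.66 ± 0.21.

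Ccl9 encodes a CCR1 ligand made by macrophages and microglia. Its values were 265 and 253 in the controls, 237 and 159 at the lower dose and 1139 and 997 at the higher dose. The order of the groups was lower dose, control, higher dose, with no overlap, but the lower-dose arrays differed by more from each other (mean 198 ± 55.0) than the nearer of them did from the controls (mean 259 ± 8.60, SD, n = 2). The higher-dose mean was 1068 ± 100. The log2 difference from control was 2.04 ± 0.23 (SE), or 4.12-fold, at the higher dose and -0.41 ± 0.23 at the lower dose, and the doses differed by 2.46 ± 0.23.

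Ccl3 and Ccl4 encode the macrophage inflammatory proteins 1 alpha and 1 beta, which attract monocytes and lymphocytes. Ccl3 was near the top of the scanner's range on every array, with deposited values of 49628 and 52345 in the controls, 60211 and 64329 at the lower dose and 65484 and 65486 at the higher dose. Both higher-dose values were saturated (65000 units or more), so the fitted difference there, 0.22 ± 0.14 on the log2 scale, is limited by the ceiling, and it ran from 0.02 to 0.36 over the alternatives tried. No lower-dose value was saturated, and the lower-dose difference was 0.16 ± 0.14. Because of the ceiling, Ccl3 cannot be ranked against the other genes.

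Ccl4 was measured at 6384 and 8870 in the controls, 7465 and 6765 at the lower dose and 13099 and 17361 at the higher dose. The lower-dose values lay between the controls and the higher-dose values above all others. The mean was 15230 ± 3014 at the higher dose against 7627 ± 1758 in the controls (SD, n = 2), a 2.00-fold difference (1.00 ± 0.24 on the log2 scale, SE). This is the widest relative spread within the control and higher-dose groups among the 7 genes, and Ccl4 did not pass in limma against control but did between the doses (1.09 ± 0.24).

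Cxcl16 encodes a chemokine that is made as a transmembrane protein and released by the protease ADAM10; its receptor is CXCR6. Its values were 582 and 536 in the controls, 573 and 416 at the lower dose and 738 and 670 at the higher dose. The higher-dose values were the highest, by a narrow margin over the upper control and the upper lower-dose array. The log2 difference was 0.33 ± 0.21 (SE), or 1.26-fold, at the higher dose and -0.19 ± 0.21 at the lower dose, where values as deposited gave 0.01.

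Cxcr4 was the only receptor among the 7 and had another order of groups. Its values were 2293 and 1941 in the controls, 1217 and 1170 at the lower dose and 1754 and 1620 at the higher dose. The groups did not overlap, with the lower dose lowest and the higher dose between it and control. The means were 2117 ± 249, 1193 ± 33.1 and 1687 ± 94.9 (SD, n = 2). Against control the log2 difference was -0.82 ± 0.16 (SE), 1.77-fold lower, at the lower dose and -0.32 ± 0.16, 1.25-fold lower, at the higher dose, and the doses differed by 0.50 ± 0.16. By unadjusted p the lower-dose difference ranked 114 of 26423 features, and it did not pass after adjustment.

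**Figure D2:**
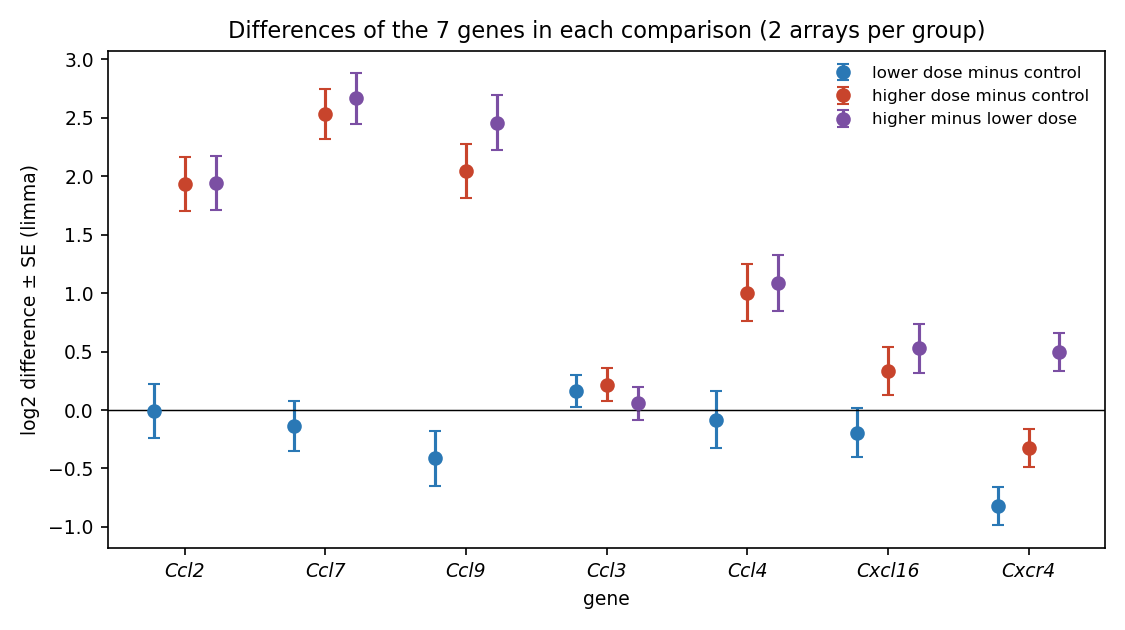
Log2 difference (± SE from limma, 2 arrays per group) of the 7 genes in each of the 3 comparisons. Ccl7, Ccl9 and Ccl2 have the largest differences at the higher dose (2.53, 2.04 and 1.93), the lower-dose points of the ligands lie between -0.41 and 0.16, and Cxcr4 alone has its larger difference from control at the lower dose (-0.82).

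In the RefSeq annotation of GRCm38.p6 the ligand genes lie in runs on chromosome 11. The first run holds, in order, Ccl2, Ccl7, Ccl11, Ccl12, Ccl8 and Ccl1, and the second holds Ccl5, Ccl9, Ccl6, Ccl3 and Ccl4. Neighbouring genes differed in value. In the first run Ccl11, which encodes the eosinophil attractant eotaxin, differed by 0.10 ± 0.17 on the log2 scale at the higher dose and Ccl1 by -0.34 ± 0.30, next to Ccl7 at 2.53. Ccl12 and Ccl8 are not named on the array. In the second run Ccl5 rose by 1.02 ± 0.17 (limma adjusted p = 0.030), while Ccl6, between Ccl9 and Ccl3 and a close relative of Ccl9, had -0.79 ± 0.18 (adjusted p = 0.0539). Ccl6 was measured at 1966 and 2257 in the controls, 1821 and 2174 at the lower dose and 1160 and 1286 at the higher dose, with no overlap between the higher dose and the other groups. Cross-hybridisation between such relatives was not tested.

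**Figure D3:**
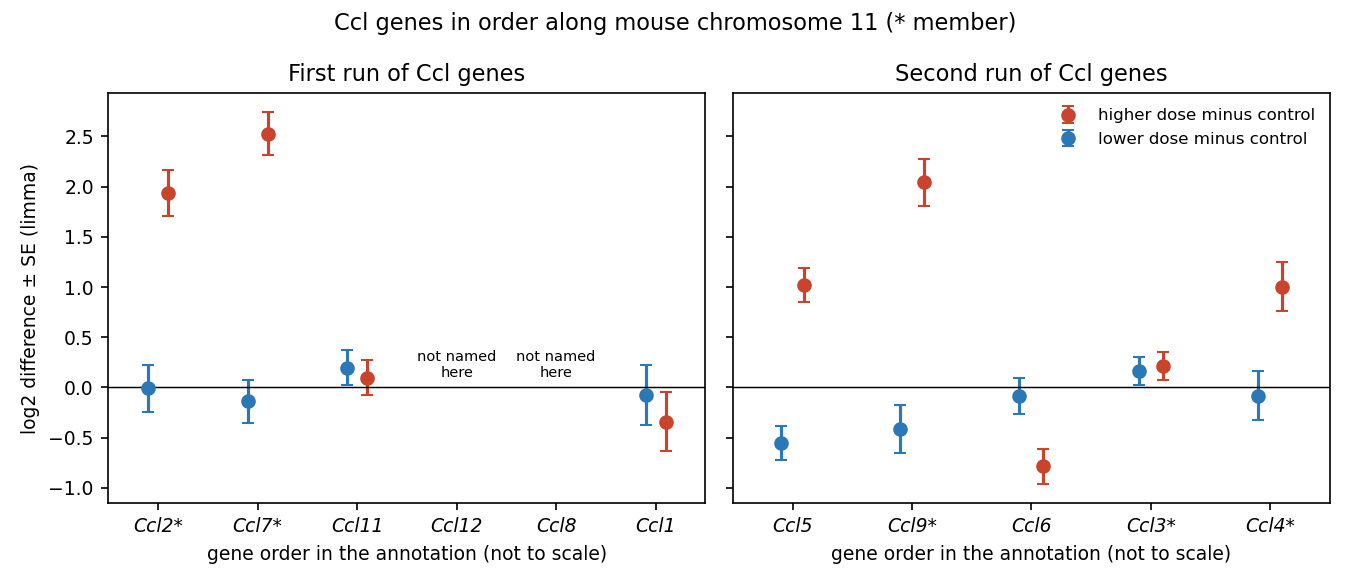
Log2 difference (± SE from limma) from control at the higher and lower dose for the Ccl genes of the runs on chromosome 11, in annotation order and not to scale; asterisks mark genes of the 7. Ccl7 (2.53) stands beside Ccl11 (0.10), and Ccl9 (2.04) beside Ccl6 (-0.79).

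RefSeq's table of promoters (GRCm38.p6) held 3 of the 7 genes: Ccl9, Ccl3 and Cxcr4. The 250 bases before the transcription start of each of these 3 are shown. Ccl9 and Ccl3 are near neighbours in the second run. Each is printed 5′ to 3′ on the gene's strand, and capitals mark matches to the motifs searched on both strands.
Ccl9 (chr11:83578637-83578886, minus strand): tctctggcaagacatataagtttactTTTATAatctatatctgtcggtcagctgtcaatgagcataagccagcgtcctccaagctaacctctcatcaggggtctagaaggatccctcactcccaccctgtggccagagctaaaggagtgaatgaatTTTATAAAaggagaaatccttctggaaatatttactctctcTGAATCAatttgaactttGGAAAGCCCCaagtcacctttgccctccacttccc
Ccl3 (chr11:83649379-83649628, minus strand): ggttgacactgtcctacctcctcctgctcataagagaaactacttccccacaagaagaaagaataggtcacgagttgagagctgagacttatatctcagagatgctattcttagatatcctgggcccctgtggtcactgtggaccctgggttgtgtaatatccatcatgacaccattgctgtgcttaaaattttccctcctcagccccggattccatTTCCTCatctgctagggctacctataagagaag
Cxcr4 (chr1:128592300-128592549, minus strand): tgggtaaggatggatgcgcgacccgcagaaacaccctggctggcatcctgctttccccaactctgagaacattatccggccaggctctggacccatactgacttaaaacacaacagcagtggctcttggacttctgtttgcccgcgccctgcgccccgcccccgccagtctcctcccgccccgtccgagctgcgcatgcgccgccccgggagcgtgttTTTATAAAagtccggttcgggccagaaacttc

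The motifs were the TATA box (TATAAA), AP-1 (TGANTCA), the cyclic AMP response element (TGACGTCA), the hypoxia response element (ACGTG), PU.1 (GAGGAA), and the interferon response element and NF-kappaB, which are given here by name. The Ccl9 window held an NF-kappaB match from -35 to -26 on the opposite strand and an AP-1 match from -53 to -47 (both strands). It also held TATA matches on the opposite strand from -224 to -219 and from -94 to -89. A TATA match on the gene's strand, from -92 to -87, overlapped the latter. The Ccl3 window held a PU.1 match from -33 to -28 on the opposite strand. The Cxcr4 window held overlapping TATA matches, from -32 to -27 on the opposite strand and from -30 to -25 on the gene's strand. Its GC content was 61.2%, against 43.6% for Ccl9 and 46.8% for Ccl3. Over all 32851 promoter windows of this table, a TATA match occurred in 12.4%, NF-kappaB in 5.0%, AP-1 in 6.75%, PU.1 in 23.3%, the hypoxia element in 16.6%, the interferon element in 2.98% and the cyclic AMP element in 1.55%. A match is a string of letters and not a shown site, and no match says only that the letters are not in this window.

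Of the other chemokine ligands, 27 of 32 listed genes were measured. At the higher dose 4 rose, 1 fell, 9 were below an unadjusted p of 0.05 and the median log2 difference was -0.05, against -0.02 over all named genes. The shares of all features were 5.55% passing upward, 5.06% passing downward and 29.1% below that p. Pf4, the platelet chemokine CXCL4, was measured at 3678 and 5443 in the controls, 6203 and 5347 at the lower dose and 20184 and 26856 at the higher dose. It rose by 2.38 ± 0.27 (SE; limma adjusted p = 0.0199), 5.20-fold, a difference between those of Ccl9 and Ccl7 in size. Cxcl10, an interferon-induced ligand of CXCR3, was measured at 149 and 186 in the controls, 109 and 97.0 at the lower dose and 525 and 728 at the higher dose. It rose by 1.89 ± 0.23 (adjusted p = 0.0204), 3.72-fold.

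Ccl5, which encodes the T cell and monocyte attractant RANTES, had 112 and 105 in the controls, 81.8 and 66.2 at the lower dose and 220 and 217 at the higher dose, and rose 2.02-fold. Ppbp, a platelet ligand of CXCR2, rose by 0.85 ± 0.14 (adjusted p = 0.0296) but did not pass with the values as deposited (adjusted p = 0.0694). Unlike those of the other risen ligands, its lower-dose values (63.0 and 63.8) lay near the higher-dose ones (73.8 and 70.5) and above the controls (40.5 and 39.8). Cxcl3, a neutrophil attractant, fell by 1.39 on the log2 scale (SE 0.22; adjusted p = 0.0278), from 30.5 and 36.5 to 13.7 and 11.8. Ccl5, Ppbp and Cxcl3 lay below the median feature.

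The neutrophil attractants related to Cxcl3 did not pass. Cxcl2 differed by 0.52 ± 0.15 (adjusted p = 0.0978), Cxcl1 by -0.94 ± 0.56 (adjusted p = 0.337) and Cxcl5 by -0.39 ± 0.15 (adjusted p = 0.163). Cxcl12, the ligand of CXCR4, had 267 and 278 in the controls, 286 and 275 at the lower dose and 278 and 246 at the higher dose. Its groups overlapped, and its log2 difference was -0.06 ± 0.15 at the higher dose and 0.04 ± 0.15 at the lower dose. Cxcl14 was measured by features that disagreed: the brighter gave 0.25 (adjusted p = 0.345) and the other 1.84 (adjusted p = 0.0186).

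**Figure D4:**
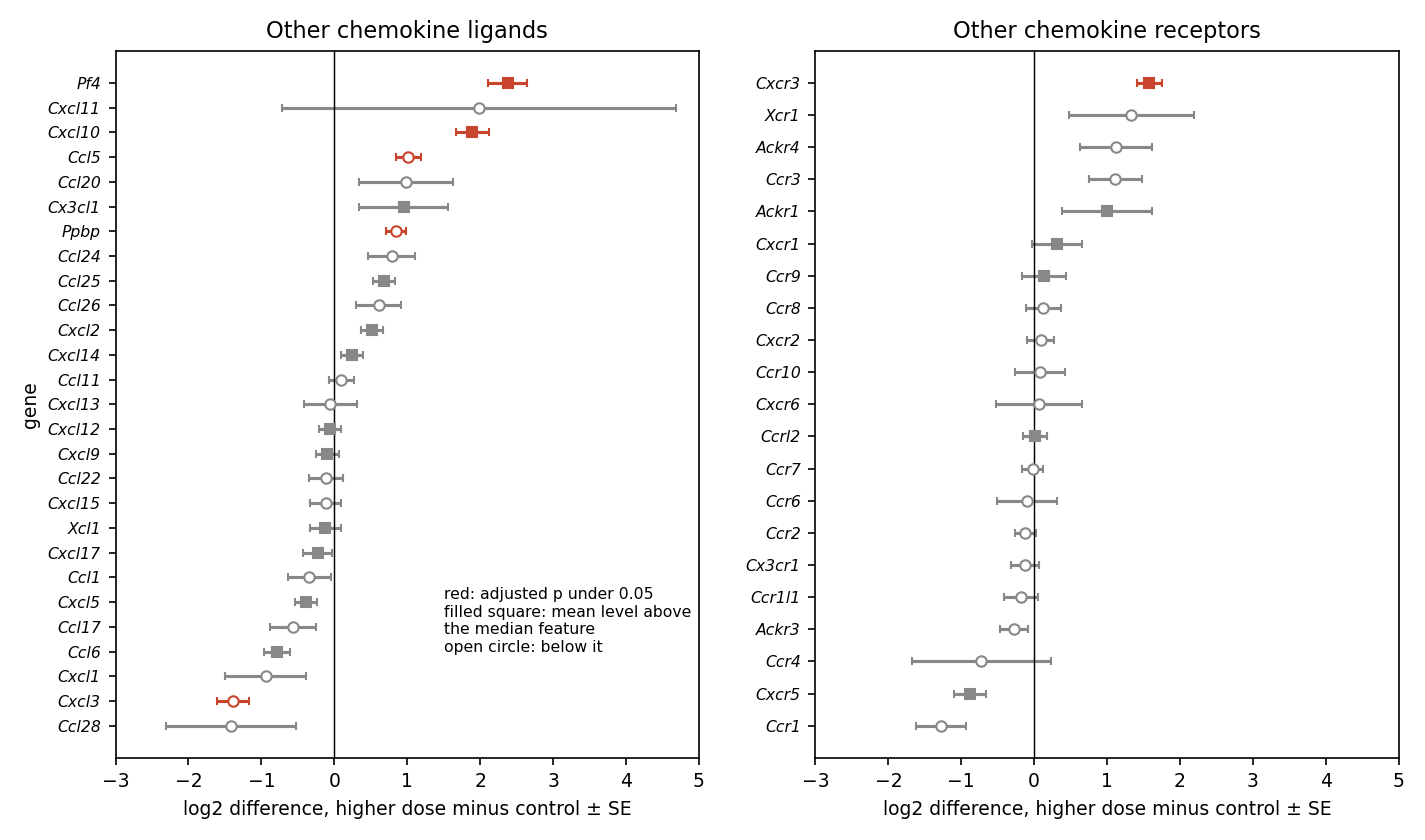
Log2 difference between the higher dose and control (± SE from limma) for the 27 other chemokine ligands and 21 other chemokine receptors measured; red marks an adjusted p below 0.05, filled squares a mean level above the median feature and open circles one below it. Pf4, Cxcl10, Ccl5, Ppbp and Cxcr3 lie to the right in red and Cxcl3 to the left, and the remaining genes are grey.

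Of the other chemokine receptors, 21 of 23 listed genes were measured, 6 of them above the median feature. At the higher dose 1 rose, none fell, 4 were below an unadjusted p of 0.05 and the median log2 difference was 0.07. The shares of all features were 5.55% passing upward, 5.06% passing downward and 29.1% below that p. Cxcr3, the receptor of CXCL10, was measured at 110 and 94.0 in the controls, 97.0 and 101 at the lower dose and 331 and 278 at the higher dose. It rose by 1.58 ± 0.17 (limma adjusted p = 0.0199), 2.99-fold. Receptors of the ligands among the 7 genes lay below the median feature. Ccr2, the receptor of CCL2 and CCL7, differed by -0.12 ± 0.14 (adjusted p = 0.633), and Ccr1 by -1.28 ± 0.34 (adjusted p = 0.076), from 19.8 and 12.7 in the controls to 5.00 and 8.50.

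Cxcr6, the receptor of CXCL16, had 25.3 and 18.3 in the controls and 26.2 and 19.5 at the higher dose, a difference of 0.07 ± 0.59 whose sign turned when arrays were scaled to equal medians (-0.016). Ackr3, the other receptor of CXCL12, differed by -0.27 ± 0.19 (adjusted p = 0.413) and Cx3cr1 by -0.13 ± 0.19 (adjusted p = 0.702). Ccr3 (1.11 ± 0.37, adjusted p = 0.120), Ackr4 (1.12 ± 0.50, adjusted p = 0.216) and Cxcr5 (-0.88 ± 0.22, adjusted p = 0.0669) did not pass. Ackr2 is not named on the array. Ligands and receptors together gave 6 calls among 48 genes at the higher dose, 0 without either control array or either higher-dose array, and at the lower dose limma called 0, with 7 below an unadjusted p of 0.05. The share of all features below that p at the lower dose was 6.36%. Between the doses 5 rose, Pf4, Cxcl10, Ccl5, Cxcr3 and Ccl25 (the last named after its value was seen), and Cxcl3 fell. For all features the shares passing between the doses were 6.78% upward and 6.95% downward. The brighter feature of Ccl25 gave 0.81 (limma adjusted p = 0.0326), but its other feature gave 0.42 (adjusted p = 0.229) and did not pass.

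Signals from chemokine receptors pass through Gi proteins to phosphoinositide 3-kinase, small GTPases and the actin cytoskeleton. Of 32 listed signalling genes 27 were measured, 25 of them above the median feature. At the higher dose 1 rose, 1 fell, 12 were below an unadjusted p of 0.05 and the median log2 difference was -0.05. Among the 10287 named genes above the median feature, 982 rose, 792 fell and 4279 were below that p. Gnai2, the Gi alpha subunit that couples chemokine receptors in leukocytes, was measured at 1372 and 1809 in the controls, 1209 and 1524 at the lower dose and 4113 and 5018 at the higher dose. It rose 2.88-fold, by 1.53 ± 0.23 (limma adjusted p = 0.0257). Cdc42, a small GTPase of cell polarity, fell by 1.02 (SE 0.16; adjusted p = 0.027), from 14286 and 13139 to 6492 and 7079.

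The next genes in the signalling list did not pass. Gnb1, a G protein beta subunit, differed by 0.64 ± 0.15 (adjusted p = 0.0571) and Was, an actin regulator downstream of Cdc42, by 0.72 ± 0.20 (adjusted p = 0.0788). Rac1 differed by -0.85 ± 0.20 (adjusted p = 0.0597) and Jak2 by -0.82 ± 0.18 (adjusted p = 0.0505). Each of these 4 genes had higher-dose values that did not overlap the controls. This was also the case for 28.8% of all features above the controls and 31.3% below them.

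Receptor signals are ended by regulators of G protein signalling, receptor kinases and arrestins, and CXCR4 is sorted to lysosomes by the ubiquitin ligase ITCH. All 22 listed genes of this group were measured, 19 of them above the median feature. At the higher dose 2 rose, 4 fell, 8 were below an unadjusted p of 0.05 and the median was -0.05. Among the 10287 named genes above the median feature, 982 rose, 792 fell and 4279 were below that p. Rgs10, a regulator of G protein signalling abundant in microglia, had 5271 and 5269 in the controls, 5186 and 5158 at the lower dose and 11817 and 11583 at the higher dose. It rose by 1.15 ± 0.14 (limma adjusted p = 0.0204), 2.22-fold. Rgs18 rose by 1.40 ± 0.17 (adjusted p = 0.0204), and Rgs19 differed by 0.49 ± 0.18 (adjusted p = 0.147).

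The genes that fell in this group act on receptor sorting and phosphorylation. Itch fell by 0.95 (SE 0.16; adjusted p = 0.0304), from 3819 and 4389 to 2008 and 2240. Usp14, a deubiquitinase that acts on CXCR4, fell by 1.06 (SE 0.18; adjusted p = 0.0305) on its brighter feature, while its other feature gave -0.64 (adjusted p = 0.194). The Usp14 call was lost with values as deposited (adjusted p = 0.066), at equal medians (0.051) and with the mean of its features (0.0667). Vps4b, an ATPase of endosomal sorting, fell by 1.18 (SE 0.24; adjusted p = 0.0438), and the receptor kinase gene Grk5, named after its value was seen, fell by 0.73 (SE 0.15; adjusted p = 0.0452). The Vps4b call was lost with values as deposited (adjusted p = 0.0669), with only the compared groups in the fit (0.0742) and with either lower-dose array left out (0.0742), and the Itch call with only the compared groups (0.0552). At the lower dose, where Cxcr4 was lowest, limma called none of the 22 and 3 were below an unadjusted p of 0.05. Of the 10287 named genes above the median feature, 414 were below that p at this dose.

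Chemokines are trimmed by proteases, held on heparan sulphate and, in the case of CXCL16, shed from the membrane. Of 21 listed genes 20 were measured, 17 of them above the median feature. At the higher dose 2 rose, 1 fell, 6 were below an unadjusted p of 0.05 and the median was 0.16. Among the 10287 named genes above the median feature, 982 rose, 792 fell and 4279 were below that p. The sheddase genes Adam10 (-0.49 ± 0.14, adjusted p = 0.0919) and Adam17 (-0.48 ± 0.20, adjusted p = 0.203) did not pass. Mmp9, a gelatinase that cleaves chemokines, rose by 1.75 ± 0.26 (limma adjusted p = 0.0254), from 122 and 186 to 558 and 460, a call lost with only the compared groups in the fit (adjusted p = 0.051). Cd74, the MHC class II invariant chain, which also forms a receptor complex with CXCR4 for the cytokine MIF, rose by 1.32 ± 0.17 (adjusted p = 0.0215), and its other features gave 1.27 (adjusted p = 0.0231) and 1.06 (adjusted p = 0.115). Ext2, an enzyme of heparan sulphate synthesis, fell by 0.88 (SE 0.15; adjusted p = 0.0305). Mmp12, below the median feature, differed by 0.93 ± 0.27 (adjusted p = 0.0933), and Mif itself is not named on the array.

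Of 30 listed regulators of chemokine transcription and mRNA stability 28 were measured, 26 of them above the median feature. At the higher dose 3 rose, 1 fell, 13 were below an unadjusted p of 0.05 and the median was 0.22. Among the 10287 named genes above the median feature, 982 rose, 792 fell and 4279 were below that p. Nfkbia, the inhibitor IkB alpha and itself an NF-kappaB target, had 2901 and 3311 in the controls, 3629 and 2968 at the lower dose and 6292 and 6044 at the higher dose. It rose by 0.99 ± 0.18 (limma adjusted p = 0.0332). Zfp36, which encodes the mRNA-destabilising protein tristetraprolin, rose by 1.08 ± 0.21 (adjusted p = 0.0398), and Irf7, a transcription factor of the interferon response, rose by 1.49 ± 0.24 (adjusted p = 0.0279). The Zfp36 call was lost in 11 of 17 alternatives, among them values as deposited (adjusted p = 0.054), equal medians (0.0658) and only the compared groups (0.0634), and the Irf7 call was lost with only the compared groups (0.0525). Zfp36 and Irf7 had lower-dose values below both controls (1295 and 1089 for Zfp36, with controls of 1756 and 2249), but neither difference passed at that dose (adjusted p = 0.764 for each).

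Elavl1, which encodes the mRNA-stabilising protein HuR, fell by 1.35 (SE 0.22; adjusted p = 0.0293) on its brighter feature, and its other, dim feature gave -0.47 (adjusted p = 0.294). The Elavl1 call was lost with values as deposited (adjusted p = 0.0521), with only the compared groups (0.0549) and with the mean of its features (0.0606). Rela, the p65 subunit of NF-kappaB, differed by -0.54 ± 0.20 (adjusted p = 0.146), Nfkbie by -0.73 ± 0.21 (adjusted p = 0.0859) and Nrf1 by -0.62 ± 0.16 (adjusted p = 0.0679) on its brightest feature, against -0.04 (adjusted p = 0.970) and 0.07 (adjusted p = 0.842) on its others. The features of Hif1a disagreed in sign. At the lower dose limma called none of the 28, with 3 below an unadjusted p of 0.05. Of the 10287 named genes above the median feature, 414 were below that p at this dose.

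Named genes with an array pattern most like each of the 7 were found by the root mean square difference of log2 profiles, each centred on its control mean, over the 6 arrays and among 10280 named genes above the median feature. Aif1, the microglial actin-binding protein IBA1 named among the markers above, was nearest to Ccl9 (0.21), followed by Selenom (0.23) and Cd37 (0.23), and no gene came within 0.20 of it. For Ccl7 the nearest were 2310033P09Rik (0.17), Lst1 (0.22) and Apoc2 (0.22), with 1 gene within 0.20. For Ccl2 they were Tbc1d24 (0.15), Rpl35a (0.16) and Gngt2 (0.17), with 11 within 0.20. Lst1 had 1377 and 1429 in the controls and 7819 and 7526 at the higher dose, and Apoc2 had 422 and 556 against 2225 and 2463.

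For Cxcr4 the nearest patterns were those of Cmpk2 (0.11), B4galnt1 (0.12) and Hhex (0.13), with 18 genes within 0.20. Cmpk2, a mitochondrial nucleotide kinase gene, had 2268 and 1736 in the controls, 1028 and 962 at the lower dose and 1696 and 1559 at the higher dose, the same order of groups as Cxcr4. For the flatter patterns many genes were as near: 707 came within 0.20 of Cxcl16 (nearest Pkd1l3, Neurl1b and Lcat) and 189 of Ccl4 (nearest Pigx, Pdcd2 and Cd320). The Ccl3 profile is cut off by saturation at the higher dose, so its nearest genes, Cinp, Amz2 and Prom1, are like a saturated profile only. Among the 6 genes without saturated values Ccl7 and Ccl9 were the closest pair (0.33). The arrays share their groups, and the measure is a description with no test.

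**Figure D5:**
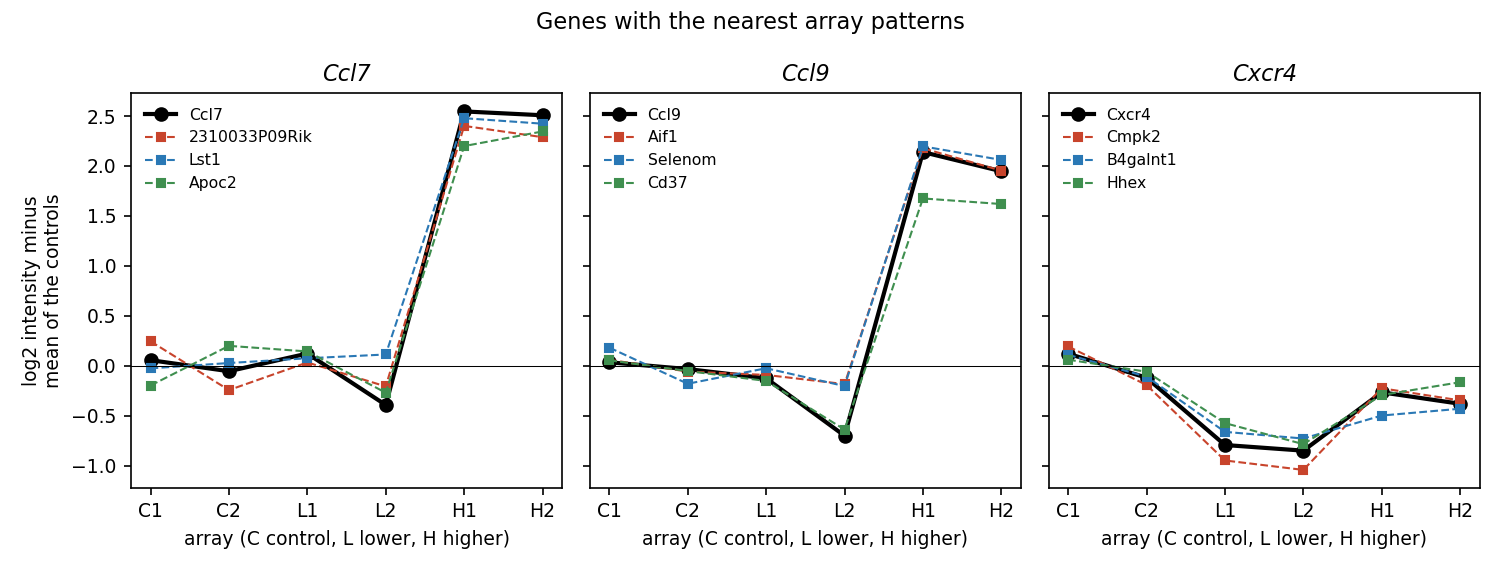
Log2 intensity relative to the mean of the controls on each of the 6 arrays for Ccl7, Ccl9 and Cxcr4 (black) and the 3 named genes nearest to each in pattern (coloured). The neighbours of Ccl7 and Ccl9 are high on both higher-dose arrays, and those of Cxcr4 are lowest on the lower-dose arrays.

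The 7 genes are short: their median span in the annotation was 4101 bases, against 19270 over the 17710 named genes with a span. When the trend of each array's log2 difference on gene span was removed, an alternative added after the data were seen, the higher-dose difference was 2.34 for Ccl7, 0.02 for Ccl3 and -0.48 for Cxcr4. In that fit the same number passed, 3 against control and 4 between the doses.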

How the data were processed

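The deposited table holds 1 spot intensity per feature and array, linear and in whole numbers from -21 to 65489. The submitters' processing notes name RMA, but the values are not on a log scale and the array medians differ (125 to 170), which RMA output would not show, so normalization was done here. The scanner and any detection flags are not given in the sources used. Between 196 and 315 features per array lay below 1, and 10 to 39 were at 65000 or above.

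Arrays were quantile-normalized, values below 1 were set to 1, and log2 was taken. All 6 arrays were fitted in limma 3.58.1 under R 4.3.3 (a mean for each group, Benjamini-Hochberg over 26423 features, two-sided, threshold 0.05, 3 residual degrees of freedom); the fit was tested on simulated data. Precision is limited by 2 arrays per group. Figures used Python 3.11.15 and matplotlib 3.10.9.

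The platform annotation, which can be old, gave 1 symbol for 20377 features and none for 6046; 18213 symbols matched RefSeq (GRCm38.p6) directly and 2126 through a synonym. The brightest feature stands for a gene outside the 7. Named from each list were the 3 genes with the smallest p in each direction and a fixed set of related ligands, receptors and regulators; exceptions are marked. The 7 genes and all lists were chosen with earlier results of these data known. Replicate numbers were not used as pairs. Alternatives were other scalings, filters, priors, weights, blocks, thresholds and leaving out each array.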

Additional observations from a re-analysis of the deposited data

How the results depend on the processing

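With 2 arrays per group and 3 residual degrees of freedom, few calls survive the loss of an array. Of the 7 genes, 3 passed at the higher dose against control; 0 did at a threshold of 0.01, and leaving out 1 array gave 0 to 3. Of the 48 other chemokine ligands and receptors, 6 passed; 11 did at a threshold of 0.10, 0 at 0.01, and 0 to 5 with 1 array left out. Between the doses 4 of the 7 passed, and 0 did at a threshold of 0.01, with only the compared groups in the fit, or without any 1 array. At the lower dose 0 passed under every alternative run. Over all features the higher-dose count was 2803, and it was 2138 as deposited, 5524 with only features above the median level, 4764 with log2(value + 16), 5000 with an intensity trend in the prior, 1584 with only the compared groups, 5262 at a threshold of 0.10, 10 at 0.01 and 6 to 1589 with 1 array left out.

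With the replicate number as a block, 0 of the 7 genes, 0 of the 48 and 11 of all features passed at the higher dose against control, and 3 of the 7 passed between the doses. Over 13211 features, deviations of same-numbered arrays from their group means correlated at 0.03 between control and lower dose. The correlation was 0.31 between control and higher dose and -0.23 between the doses. With 2 arrays per group these values cannot settle whether the numbers pair the arrays. The block takes up residual degrees of freedom. With the lower-dose numbers crossed, a choice made after seeing the data, 4 of the 7 passed in each of these comparisons and 2410 of all features against control.

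Over 17 alternatives the higher-dose log2 difference ran from 1.74 to 2.26 for Ccl2, 2.34 to 2.59 for Ccl7, 1.90 to 2.15 for Ccl9, 0.02 to 0.36 for Ccl3, 0.77 to 1.25 for Ccl4, 0.19 to 0.40 for Cxcl16 and -0.48 to -0.20 for Cxcr4. At the lower dose Cxcr4 ran from -0.95 to -0.64, and Ccl2, Ccl7, Ccl4 and Cxcl16 took either sign. Scaling moved the median of all features: it was 0.22 at the lower dose against control and -0.25 between the doses as deposited, and between -0.08 and 0 under quantile normalization or equal medians. Higher-dose differences that reversed were those of Cxcr6 (-0.016 at equal medians, -0.079 with the span trend removed, and -0.15 to 0.295 over the fits with 1 array left out), Cxcl12 (-0.15 to 0.030 over those fits, positive without higher-dose replicate 2) and Cx3cr1 (-0.31 to 0.046, positive without control replicate 1). None of these 3 had passed, and the cause was not tested. Ccl3 is limited by saturation, and features near the floor of 1 have uncertain log2 values.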
